A study of Mus musculus with 4 samples.

Results

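The cells described here carry the deposited name GP in the authors' per-cell tables of mouse duodenal crypt cells. They were taken by that name alone, matched by library and barcode to the raw count matrices, and numbered 1862 of the 15234 named cells. The deposited names are printed as given, and GP is not spelled out in the sources used here. There were 4 libraries of 10x Genomics 3' single-cell RNA sequencing, 2 per genotype. The WT libraries came from Atoh1CreER-T2;R26RTom mice. The APC-KO libraries are labelled Atoh1Cre;Apcfl/fl;R26RTom, while the series text names the tamoxifen-inducible Atoh1CreER-T2 driver for both genotypes. All mice received 2 doses of tamoxifen at 1 mg/mL spaced 24 h apart, and crypts were harvested 12 h after the last dose. In both genotypes Cre acts in cells that express Atoh1, the transcription factor that commits crypt cells to the secretory lineage, and switches on the red reporter TOM. Living TOM+ cells were sorted, so the sort set which cells could enter the libraries. Nothing in the labels says whether the 2 libraries of a genotype came from separate animals, so the p-values below measure only the spread between these libraries. Sex, age, litter and sequencing batch were not given.

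The crypt epithelium renews itself from stem cells at its base. Secretory progenitors leave the cycle and become goblet cells, which package mucin into granules, Paneth cells, which secrete lysozyme and defensins, or enteroendocrine and tuft cells. Goblet and Paneth cells share Atoh1, Spdef and a large folding and export machinery in the endoplasmic reticulum (ER). Paneth cell maturation is known to require Wnt signalling. APC, the product of the gene targeted in the APC-KO mice, holds β-catenin and thereby Wnt target genes in check. The GP cells were set against the cells with the deposited names SEC-PRO (1798 cells), GOBLET-PRE (3791 cells) and PANETH-PRE (833 cells).

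Promoter sequence is shown for genes of the 3 groups that set GP cells apart or link them to their neighbours. These are mitotic genes that were lower in GP than in SEC-PRO cells, ER folding genes that were higher in GP than in SEC-PRO cells, and a Paneth defensin. The defensin gave UMIs in WT GP cells and 0 in APC-KO GP cells. Each line is the 250 bases before the RefSeq gene start in GRCm38.p6, 5′ to 3′ on the gene's strand. Top2a (topoisomerase 2α, chr11:99024190-99024439, minus strand), Hmmr (a spindle protein, chr11:40733438-40733687, minus strand) and Mki67 (the Ki-67 proliferation antigen, chr7:135716380-135716629, minus strand) are printed with the CCAAT box CCAAT in capitals, read on either strand.
Top2a: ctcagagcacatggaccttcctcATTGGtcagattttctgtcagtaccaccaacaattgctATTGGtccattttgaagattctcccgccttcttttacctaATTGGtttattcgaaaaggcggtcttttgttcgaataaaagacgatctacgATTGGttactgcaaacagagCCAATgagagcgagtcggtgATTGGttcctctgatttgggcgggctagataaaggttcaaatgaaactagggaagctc
Hmmr: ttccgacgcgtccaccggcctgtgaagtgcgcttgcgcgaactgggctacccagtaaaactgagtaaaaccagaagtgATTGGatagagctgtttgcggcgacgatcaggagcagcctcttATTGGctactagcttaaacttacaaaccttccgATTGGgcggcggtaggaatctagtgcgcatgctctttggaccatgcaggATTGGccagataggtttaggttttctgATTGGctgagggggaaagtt
Mki67: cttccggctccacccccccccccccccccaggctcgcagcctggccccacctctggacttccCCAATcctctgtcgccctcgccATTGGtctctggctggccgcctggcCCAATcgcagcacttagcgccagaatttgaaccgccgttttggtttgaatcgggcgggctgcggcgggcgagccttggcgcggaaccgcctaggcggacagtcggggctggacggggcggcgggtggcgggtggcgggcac
The next pair, Dnajc3 (an ER co-chaperone, chr14:118937682-118937931, plus strand) and Creld2 (an ER stress-inducible secreted protein, chr15:88819396-88819645, plus strand), has the ER stress element in capitals, searched on either strand as CCAAT, 9 bases of any kind and CCACG, so that it contains a CCAAT box.
Dnajc3: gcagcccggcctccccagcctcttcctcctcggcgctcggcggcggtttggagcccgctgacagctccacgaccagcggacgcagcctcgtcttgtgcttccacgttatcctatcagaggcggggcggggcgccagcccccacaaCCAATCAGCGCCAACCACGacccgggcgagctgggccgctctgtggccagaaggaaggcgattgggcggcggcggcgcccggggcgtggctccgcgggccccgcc
Creld2: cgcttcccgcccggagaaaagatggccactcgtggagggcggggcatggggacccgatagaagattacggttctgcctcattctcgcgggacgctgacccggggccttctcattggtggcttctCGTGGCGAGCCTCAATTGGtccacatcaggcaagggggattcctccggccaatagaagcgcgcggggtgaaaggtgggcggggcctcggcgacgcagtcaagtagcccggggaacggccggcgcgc
Defa23, an α-defensin gene (chr8:21054790-21055039, plus strand), has the TCF motif CTTTGAT in capitals, read on either strand.
Defa23: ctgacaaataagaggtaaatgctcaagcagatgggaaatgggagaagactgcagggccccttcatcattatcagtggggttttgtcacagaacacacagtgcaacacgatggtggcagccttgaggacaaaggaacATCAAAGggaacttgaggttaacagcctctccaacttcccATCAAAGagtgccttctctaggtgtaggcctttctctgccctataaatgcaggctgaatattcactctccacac
A CCAAT box was found in 15 of the 18 G2/M genes with a RefSeq promoter entry (83.3%) and in 37.5% of 27025 genes. It was also found in 17 of 22 ER folding genes (77.3%) and 11 of 17 S phase genes (64.7%), so it was not particular to the mitotic genes. The ER stress element was found in 7 of 22 ER folding genes (31.8%) and in 0.130% of all genes. The TCF motif was found in 8 of 16 Paneth genes (50%) and in 3.72% of all genes, and 7 of those 8 were defensin genes that are near-identical copies of one another. A match is a description of these letters, not of a bound site.

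The libraries held 61032126, 55895390, 58403427 and 54230249 unique molecular identifiers (UMIs, each a counted RNA molecule) in the order WT replicate 1, WT replicate 2, APC-KO replicate 1, APC-KO replicate 2, which holds for every set of 4 values below. The authors kept 4814, 3821, 356 and 6243 cells. Kept cells had 901 to 2999 genes. In APC-KO replicate 1, 76.95% of the barcodes with over 900 genes and under 7% mitochondrial UMIs had 3000 or more genes, against 7.62% to 16.5% in the other libraries, and this library kept few cells. Its 7 GP cells gave 47953 UMIs, against 3963900, 3262724 and 1681173 in the other libraries, so that 1 UMI there is worth 20.9 CPM. Levels below are CPM, the summed UMIs of all cells of 1 name in 1 library scaled to a total of 1000000. No GP barcode was shared between libraries, and 1 to 8 barcodes of all kept cells were shared by any pair. Scrublet called 0.0320% to 1.12% of cells doublets, 1 of them a GP cell. It called under 0.5% in the 3 larger libraries and so did not work, and doublets were not removed. Levels of Apc in GP cells were 89.6, 85.5, 104.3 and 81.5 CPM, a log2 difference of 0.01 (SE 0.21, edgeR adjusted p = 0.998), but a 3' tag outside the floxed part cannot check the deletion.

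The 5 genes given as GP markers were present in GP cells, but in WT libraries 4 of them were highest in PANETH-PRE cells. Retnlb encodes RELMβ, a bactericidal goblet cell protein (chr16:48816856-48818892 in GRCm38). It stood at 51.7, 24.8, 0 and 7.14 CPM in GP cells and at 157, 109.8, 858 and 41.2 CPM in PANETH-PRE cells. Ccl9, a chemokine gene (chr11:83572919-83578636), stood at 684, 828, 876 and 578 CPM in GP cells, the value of APC-KO replicate 1 resting on 42 UMIs. SEC-PRO cells had 413 and 506 CPM of Ccl9 in WT, GOBLET-PRE cells 278 and 364 and PANETH-PRE cells 1987 and 2251. GP cells thus had more Ccl9 than both SEC-PRO and GOBLET-PRE cells and less than PANETH-PRE cells in both WT libraries. Rnase1, a secreted ribonuclease gene (chr14:51144998-51146785), stood at 374, 414, 667 and 245 CPM in GP cells and at 2941, 3317, 3041 and 1661 CPM in PANETH-PRE cells. Creb3l1 encodes an ER-membrane transcription factor of secretory cells (chr2:91982328-92024502). It stood at 353, 369.9, 479.6 and 282 CPM in GP cells, the highest of the 12 deposited names in both WT libraries. The remaining marker, Bhlha15 (Mist1, a factor that enlarges the secretory apparatus, chr5:144190286-144194441), stood at 51.97, 54.2, 41.7 and 49.97 CPM in GP cells and at 109, 133, 103 and 73.5 CPM in PANETH-PRE cells. The GP cells are therefore called by their deposited name, since these 5 genes do not separate them from PANETH-PRE cells.

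Shares of cells gave the same order for Ccl9. After each cell was thinned to 2000 UMIs, which left out 18, 5, 0 and 17 GP cells, a Ccl9 UMI was found in 54.9 and 59.5% of GP cells of WT replicates 1 and 2. The share was 37.9 and 42.6% in SEC-PRO, 31.7 and 36.3% in GOBLET-PRE and 75.8 and 73.5% in PANETH-PRE cells. EC cells, which carry enteroendocrine genes and should lack Ccl9, had 2.55 and 3.49% as the background of free RNA. Without thinning the GP shares were 72.2 and 75.3%. A Retnlb UMI was found in 24 of 767 (3.13%) and 10 of 610 (1.64%) thinned GP cells of the WT libraries. In GOBLET-PRE cells it was found more often, in 49 of 1263 (3.88%) and 30 of 1241 (2.42%). Without thinning the shares were 5.22 and 3.41% in GP and 6.79 and 4.25% in GOBLET-PRE cells. In EC cells it was found in 0 of 353 (exact 95% upper bound 1.04%) and 1 of 258 (0.388%), at median depths of 3066 and 3374 UMIs before thinning against 5154 and 5302 in GP cells. In APC-KO replicate 2 the Retnlb share was 0.913% in GP cells (4 of 438) and 0.803% in EC cells, so that it was at background there. Most GP cells therefore had no Retnlb UMI at this depth.

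Against SEC-PRO cells, GP cells held far fewer cell cycle transcripts and more goblet, ER and immediate early transcripts. Values are log2 ratios of CPM + 1, and a gene was counted when the ratio reached 2-fold in both WT libraries. These counts describe the cells and carry no test, because the names were made from the same genes. Of 13675 genes, 75 (0.548%) were higher and 633 (4.63%) lower by at least 2-fold in GP cells. The same direction was seen in APC-KO replicate 2 for 65 of the 75 and 625 of the 633. At any fold, 3751 of the 13675 genes were higher and 5912 lower in both WT libraries.

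Proliferation genes made up the lower end. All 20 G2/M genes were at least 2-fold lower than in SEC-PRO cells in both WT libraries, with median log2 ratios of −4.01 and −3.71, against −0.10 and −0.09 over all genes. Top2a stood at 416, 269, 544 and 639.5 CPM in SEC-PRO cells and at 24.98, 14.1, 20.9 and 22.6 CPM in GP cells. Mki67 stood at 632, 409, 661 and 640.3 CPM in SEC-PRO cells and at 33.8, 42.6, 20.9 and 45.2 CPM in GP cells. Every SEC-PRO value lay above every GP value for both genes. A Mki67 UMI was found in 6.39 and 7.21% of thinned WT GP cells, 53.8 and 42.1% of SEC-PRO cells and 4.53 and 3.49% of EC cells. Of the S phase list, 19 of 20 genes were at least 2-fold lower, with medians of −2.42 and −2.80. The 5 genes with the lowest ratios were Pclaf, a PCNA-binding replication factor (−4.85 and −4.73), Uhrf1, which maintains DNA methylation (−4.45 and −4.63), cyclin A2 gene Ccna2 (−4.40 and −4.56), the linker histone gene Hist1h1b (−4.50 and −4.33) and Hmmr (−4.58 and −4.25). The summed G2/M list in GP cells was near that of GOBLET-PRE cells. With APC-KO replicate 1, the 7-cell library, left aside it was 167, 155 and 181 CPM in GP cells, 3033, 1969 and 3346 in SEC-PRO and 115, 86.7 and 141 in GOBLET-PRE cells.

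Progenitor genes did not all differ in one direction. Of 12 secretory progenitor genes 7 were lower and 3 higher in both WT libraries, with medians of −0.28 and −0.37, and the median was 0.24 in APC-KO replicate 2. Sox4, a progenitor transcription factor gene, stood at 354 and 335 CPM in WT SEC-PRO cells and at 70.4 and 60.1 CPM in GP cells. The stem cell gene Olfm4 stood at 169 and 119 CPM in SEC-PRO and at 49.95 and 34.02 CPM in GP cells. All 15 stem cell genes and 12 of the 14 detected Wnt target genes were lower in both WT libraries, 4 and 3 of them by at least 2-fold. Dll1, the Notch ligand of secretory progenitors, was close in the 2 cell groups. It stood at 212, 246, 194 and 126 CPM in SEC-PRO cells, 185, 211, 167 and 162 CPM in GP cells and 112, 132, 104.4 and 80.6 CPM in GOBLET-PRE cells. Atoh1 stood at 169.8, 176, 313 and 134 CPM in GP cells and at 146, 181, 77.8 and 94.4 CPM in SEC-PRO cells. Sox4 was thus low in GP cells while Dll1 and Atoh1 stayed near their SEC-PRO levels.

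Secretory genes were higher. All 20 goblet genes exceeded their SEC-PRO level in both WT libraries, 4 of them by at least 2-fold, with median log2 ratios of 0.78 and 0.91 and 0.99 in APC-KO replicate 2. Muc2, the gel-forming mucin of the gut, stood at 2061, 1535, 2760.5 and 1799 CPM in SEC-PRO, 4787, 3959, 3086 and 4369.6 CPM in GP and 9145, 8271, 8025 and 8786 CPM in GOBLET-PRE cells. In each of the 4 libraries Muc2 in GP cells lay between the other 2 cell groups. Spdef, the factor that drives goblet and Paneth maturation, was highest in GP cells among all 12 names in every library. It stood at 209, 252, 250.2 and 189 CPM in GP cells, 135, 184, 117 and 113 CPM in SEC-PRO cells and 156, 179.9, 193 and 139 CPM in GOBLET-PRE cells. All 28 ER folding genes were higher than in SEC-PRO cells in both WT libraries, though none by 2-fold, with medians of 0.40 and 0.34. Against GOBLET-PRE cells they were near level, with 13 higher and 7 lower in both WT libraries and medians of 0.11 and −0.002. Hspa5, the chief ER chaperone, stood at 2019, 2277, 1749.6 and 1514 CPM in SEC-PRO and 2901, 2883, 1773 and 2382 CPM in GP cells. Dnajc3, whose promoter is printed above with its ER stress element, stood at 357, 431, 389 and 209 CPM in SEC-PRO and 459, 548, 479.6 and 339 CPM in GP cells. Xbp1, a transcription factor of the unfolded protein response, stood at 247, 231, 272 and 191 CPM in SEC-PRO and at 331, 315, 500.5 and 238 CPM in GP cells. Creld2, the other gene printed with this element, stood at 132 and 185 CPM in WT SEC-PRO and 178 and 198 CPM in WT GP cells. Of the 21 mucin glycosylation genes with UMIs, 20 were higher than in SEC-PRO cells. Against GOBLET-PRE cells 7 genes of this list were higher and 7 lower in both WT libraries. Galnt3, which starts O-glycan chains, stood at 198 and 160.1 CPM in WT SEC-PRO cells and at 257 and 237 CPM in GP cells.

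All 20 immediate early genes, which respond within minutes to stimulation or cell handling, were higher in GP than in SEC-PRO cells in both WT libraries, and 9 reached 2-fold. Among the genes with the highest ratios of all were Atf3, a stress-induced factor (1.51 and 1.58), and Dusp1, a MAP kinase phosphatase (1.47 and 1.72). Mptx1, a mucosal pentraxin (1.80 and 2.55), Nupr1, a stress-induced nuclear protein (1.88 and 1.63), and the RAB15 effector Rep15 (1.57 and 1.56) completed the 5 highest. The summed immediate early list was 7372 and 7611 CPM in WT GP cells. It was 7717 and 11682 CPM in WT GOBLET-PRE cells and 9785 and 10440 CPM in WT EC cells, so GP cells were not its peak. Against GOBLET-PRE cells 0 of the 20 genes were higher and 11 lower in GP cells in both WT libraries.

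**Figure D1:**
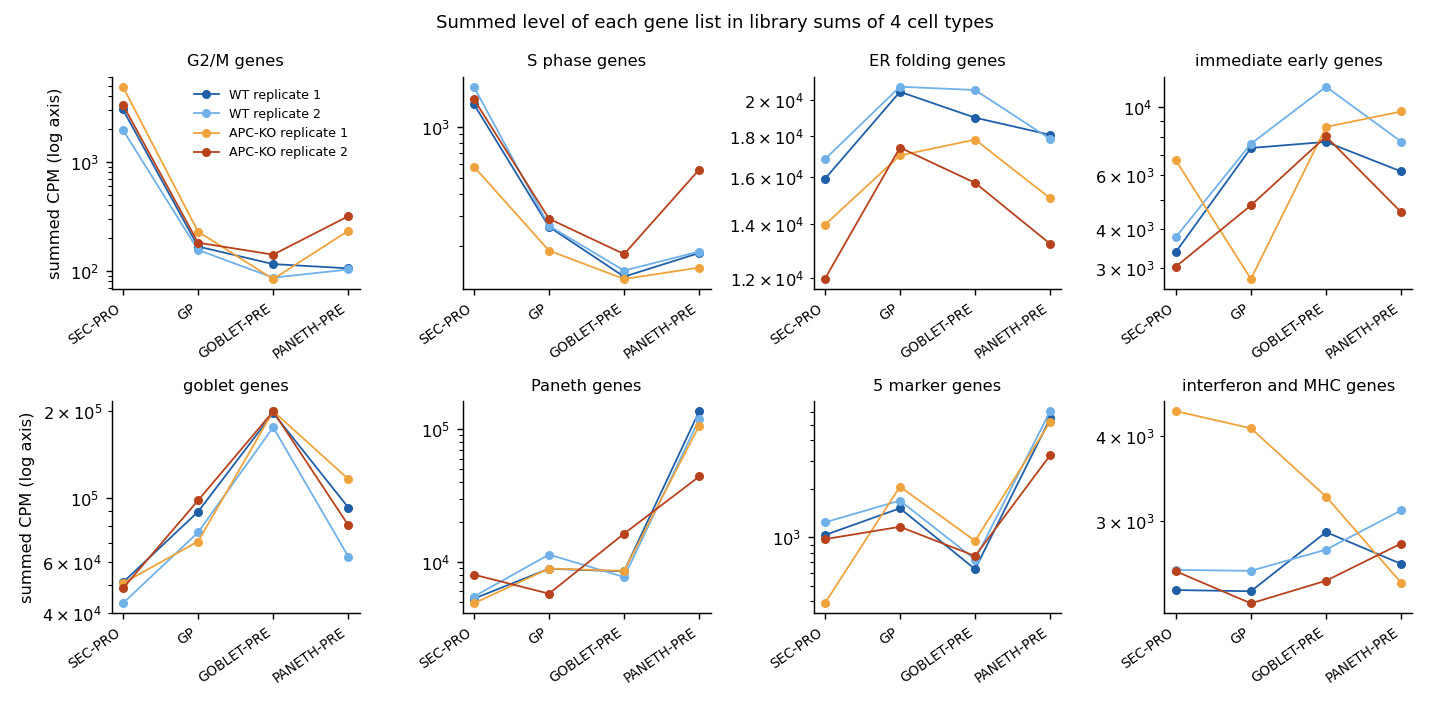
Summed CPM of 8 gene lists (log axis) in SEC-PRO, GP, GOBLET-PRE and PANETH-PRE cells, 1 line per library. G2/M genes step down between SEC-PRO and GP cells in every library, goblet genes step up from SEC-PRO to GP to GOBLET-PRE cells, and the 5 marker genes and the Paneth genes are highest in PANETH-PRE cells; APC-KO replicate 1 rests on 5 SEC-PRO and 7 GP cells.

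Against GOBLET-PRE cells, GP cells had less of the mature goblet and interferon-linked transcripts and more of the replication and progenitor transcripts. Of 14025 genes, 165 (1.18%) were higher and 118 (0.841%) lower by at least 2-fold in both WT libraries. In APC-KO replicate 2, 147 of the 165 and 115 of the 118 had the same direction. Zg16, a lectin of the mucus layer, was among the genes with the largest shortfall. It stood at 5962, 6702, 938 and 7827 CPM in GP cells and at 55790.4, 60352, 53752 and 44836 CPM in GOBLET-PRE cells, log2 ratios of −3.23 and −3.17 in WT. Free RNA carried 13718, 19351, 14219.8 and 13646 CPM of Zg16, measured in barcodes with 1 to 50 UMIs. Clca1, a mucus-processing protease gene, stood at 1281, 2094, 250.2 and 1207 CPM in GP and 5465, 8651, 6435 and 5219.5 CPM in GOBLET-PRE cells. Of the 20 goblet genes 17 were lower in GP cells, 6 by at least 2-fold. Agr2, an ER disulfide isomerase needed for mucin folding, was nearly level at 17520.4, 19857, 8613 and 11625 CPM in GP and 19576, 22591, 17094 and 10276 CPM in GOBLET-PRE cells. Goblet genes therefore differed in how much of their GOBLET-PRE level GP cells had reached.

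The other genes with the largest shortfall were the glutathione S-transferase genes Gsta1 (−3.14 and −3.73) and Gsta4 (−3.00 and −2.95) and the interferon-induced genes Ifit1bl1 (−3.43 and −2.86) and Ddx60 (−2.75 and −2.52). Of the 20 interferon and MHC genes, 17 were lower in GP cells and 8 by at least 2-fold, with median log2 ratios of −0.69 and −0.57. Isg15, a ubiquitin-like interferon target, stood at 26.7, 16.6, 0 and 7.14 CPM in GP and 206, 76.5, 69.04 and 42.6 CPM in GOBLET-PRE cells. On the other side, Fam213a, a peroxiredoxin-like gene (2.41 and 2.22), Rnase1 (1.93 and 2.08), Clca3b (1.93 and 2.39), the nucleosome-binding gene Hmgn1 (1.87 and 1.60) and the histone chaperone gene Nap1l1 (1.49 and 1.97) were highest relative to GOBLET-PRE cells. Of the S phase list 19 of 20 genes were higher in GP cells, 6 of them by at least 2-fold. Higher levels were also seen for 13 of 15 stem cell genes, 12 of 14 Wnt target genes and all 11 secretory progenitor genes with UMIs. Of all 14025 genes, 7553 were higher and 2642 lower in both WT libraries. The median over all genes was 0.19 and 0.18. Axin2, a direct Wnt target, stood at 57.2 and 44.1 CPM in WT SEC-PRO cells, 23.2 and 18.1 in GP cells and 5.56 and 4.01 in GOBLET-PRE cells.

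**Figure D2:**
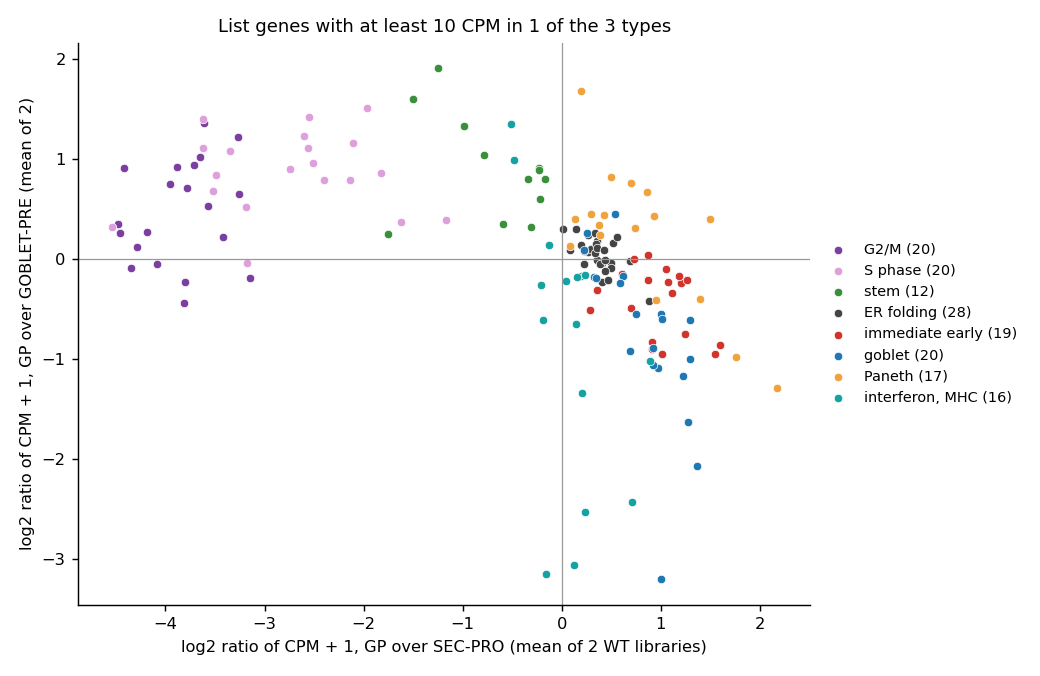
Each point is a gene of 1 fixed list, with the number of plotted genes in the legend; the x axis is its log2 ratio of CPM + 1 in GP over SEC-PRO cells and the y axis that over GOBLET-PRE cells, both means of the 2 WT libraries. G2/M and S phase genes lie far to the left, goblet genes to the right and mostly below 0, ER folding genes just right of 0, and several interferon and MHC genes far below 0.

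Against PANETH-PRE cells, GP cells held little of the Paneth programme. Of 12968 genes, 689 (5.31%) were higher and 242 (1.87%) lower by at least 2-fold in both WT libraries. APC-KO replicate 2 gave the same direction for 439 of the 689 and 188 of the 242. Of the 24 Paneth genes 21 were lower in GP cells, 19 by at least 2-fold, with median log2 ratios of −3.54 and −3.59 in WT and −1.74 in APC-KO replicate 2. Lyz1, lysozyme, stood at 625, 876, 188 and 269 CPM in GP and 12039, 16942, 4179 and 2072 CPM in PANETH-PRE cells. The α-defensin gene Defa24 stood at 4297, 4786, 6235 and 3309 CPM in GP and 82144, 59653, 69941 and 30489.5 CPM in PANETH-PRE cells. Defensin genes are near-identical copies, so their counts may be divided among them by the alignment. Samd5 (−5.11 and −5.19), Defa26 (−4.98 and −4.59), Defa34 (−6.41 and −4.40), Defa17 (−5.12 and −4.39) and Defa3 (−4.81 and −4.35) had the lowest ratios. Highest relative to PANETH-PRE cells were Clca1 (3.42 and 4.13), Zg16 (3.10 and 3.65), the ferlin gene Fer1l6 (2.94 and 2.89), Gimd1 (3.06 and 2.77) and the actin-severing gene Scin (2.65 and 4.19). The summed Paneth list in GP cells was 8876, 11342, 8905 and 5751 CPM. It was 34453, 57605, 16915 and 30008 CPM in low-UMI barcodes and 3270.4, 4580.4, 1047 and 4884 CPM in EC cells, so free RNA held more of it than GP cells did in every library.

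No gene set GP cells apart from all 3 neighbours at once. Of 12856 genes, 0 were at least 2-fold higher and 0 at least 2-fold lower than in SEC-PRO, GOBLET-PRE and PANETH-PRE cells in both WT libraries (0% each). At any fold, 334 of 3602 genes with at least 50 CPM were higher than in all 3, and 7 were lower. The median log2 ratio over all genes in WT was itself 0.32 and 0.33 against PANETH-PRE cells. It was 0.19 and 0.18 against GOBLET-PRE and −0.10 and −0.09 against SEC-PRO cells. Among the clearest of the 334 were Mid1ip1, Spdef, the histone demethylase gene Kdm5b and Arfip1. Their smallest log2 ratio against any of the 3 was 0.32, 0.32, 0.31 and 0.30 in that order. For Spdef it was against PANETH-PRE cells in WT replicate 1, no larger than the median of all genes there. Spdef was the member of this group with a known role in goblet maturation.

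GP cells lay between SEC-PRO and GOBLET-PRE cells for most genes that separate the pair. The genes were picked in the same libraries for a gap between the 2 ends. That choice favours values between them, so the shares are a description. Of 265 genes at least 2-fold higher in WT GOBLET-PRE than in SEC-PRO cells, the GP value lay between for 242 (91.3%) and 247 (93.2%) in the 2 WT libraries. The median GP value had covered 48.4 and 48.0% of the log2 distance from SEC-PRO to GOBLET-PRE. Of 1079 genes at least 2-fold lower in GOBLET-PRE cells, 92.4 and 93.6% lay between, at a median of 59.6 and 58.7% of the distance. Of 171 genes higher in PANETH-PRE than in SEC-PRO cells, 78.4 and 73.1% of GP values also lay between. Of 851 genes lower in PANETH-PRE cells, 82.8 and 79.7% did. Toward PANETH-PRE cells, GP cells had covered 24.0 and 23.3% of the distance for the 171 genes and 57.8 and 56.2% for the 851 genes. In APC-KO replicate 2 the medians toward GOBLET-PRE cells were 50.1% for the higher and 69.4% for the lower genes. Toward PANETH-PRE cells they were 13.1% for the higher genes and 125% for the lower ones, where 259 of 328 GP values lay beyond the PANETH-PRE value. Over 7858 genes, the correlation of log2 CPM with GP cells in WT replicates 1 and 2 was 0.972 and 0.970 for GOBLET-PRE, 0.945 and 0.947 for SEC-PRO and 0.935 and 0.927 for PANETH-PRE cells. In APC-KO replicate 2 PANETH-PRE cells (0.962) stood above SEC-PRO cells (0.936) and below GOBLET-PRE cells (0.971), and the mean absolute log2 difference from GP cells was 0.34 for PANETH-PRE and 0.35 for GOBLET-PRE cells. Points in these correlations are genes of 1 library that share its depth and free RNA, and they carry no p. Enterocyte genes summed to 1859.5, 1474, 1543 and 1426 CPM in GP cells, 1434, 1177, 1711 and 1198 CPM in SEC-PRO cells and 4571, 4576, 10317 and 5253 CPM in low-UMI barcodes. Their part in the results was not tested. The 14 immune genes summed to 7.82, 5.82, 0 and 13.7 CPM, with 5, 6, 14 and 9 of them at 0 UMIs. The 16 tuft genes summed to 24.98, 15.3, 0 and 13.7 CPM, with 3, 4, 16 and 9 at 0. Of the 12 stromal genes, 9 to 11 were at 0, Col1a1 in every library, and Kit, which crypt secretory cells also express, made up nearly all of their sum at 144, 146, 41.7 and 192 CPM. All 8 epithelial genes were detected in every library.

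Cells with both goblet and Paneth transcripts were then counted. The planned rule asked for at least 5 UMIs of each list in a cell thinned to 2000 UMIs. It took 590 of 767 (76.9%), 480 of 610 (78.7%), 4 of 7 (57.1%) and 314 of 438 (71.7%) GP cells. EC cells, which should lack both sets, reached 51.3, 45.3, 13.3 and 50.6%, so the rule also took many cells that should have none. The mean share was 77.8% ± 1.25 in WT and 64.4% ± 10.3 in APC-KO (SD, n = 2 libraries each), a difference of −13.4 percentage points with an exact two-sided permutation p of 0.33. With 2 libraries against 2 this test cannot go below 0.33.

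A second rule was chosen after these values were seen. A cell counted when it exceeded, in both lists, the 95th percentile of the EC, NON-EC and TUFT cells of its own library. It took 216 of 767 GP cells (28.2%), 130 of 610 (21.3%), 3 of 7 (42.9%) and 51 of 438 (11.6%). In the WT libraries the share was 14.0 and 11.8% of SEC-PRO, 25.3 and 19.2% of GOBLET-PRE and 98.3 and 86.7% of PANETH-PRE cells. GP cells were thus near GOBLET-PRE cells in WT by this count. In WT libraries 99.7 and 100% of GP cells passed the goblet cutoff, so the Paneth list decided the count. In APC-KO replicate 2 the goblet cutoff was 177 UMIs, against 39.8 and 24 in WT, and 55.7% of GP cells passed it. By the Paneth list alone, 16.4% of GP cells and 34.0% of GOBLET-PRE cells of that library passed. The genotypes differed by 2.51 percentage points in the shares of GP cells above background in both lists (exact two-sided permutation p = 1, n = 2 libraries each).

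GP cells with both sets of transcripts carried more Retnlb, Rnase1 and Ccl9, which are in neither list. Retnlb was 133 CPM in them and 19.9 CPM in the remaining GP cells of WT replicate 1, and 56.6 and 16.7 CPM in WT replicate 2. Rnase1 was 709 against 241 CPM in WT replicate 1, 949.6 against 275 in WT replicate 2 and 553 against 203 in APC-KO replicate 2. Ccl9 was 962 against 576, 1049 against 772 and 693 against 564 CPM in these libraries. All 3 genes are highest in PANETH-PRE cells in WT. Dll1 was lower in the same cells, at 157 against 196, 155 against 227 and 115 against 168 CPM. Creb3l1 was also lower, at 328 against 363, 310 against 385 and 249 against 288 CPM. Bhlha15 had no common direction, at 60.8 against 48.7, 55.1 against 54.2 and 39.9 against 50.4 CPM. The cells were picked by their Paneth transcripts, so these differences are a description. Median depth in WT replicate 1 was 5218 UMIs in the cells with both sets and 5184 in the others. The part of doublets in these values was not tested.

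**Figure D3:**
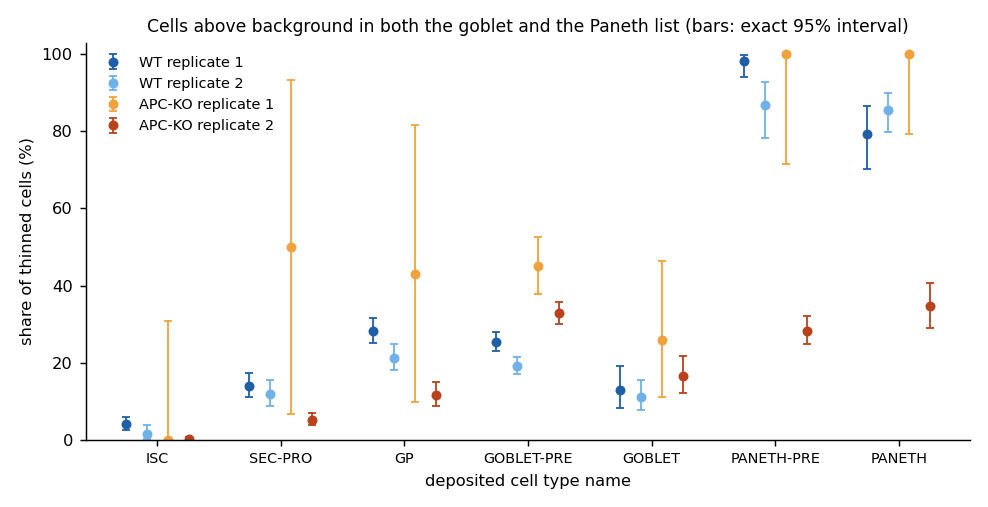
Share of thinned cells (%) that exceed the background of EC, NON-EC and TUFT cells in both the goblet and the Paneth list, by deposited name and library, with exact 95% intervals. GP cells of the WT libraries sit at 28.2 and 21.3%, near GOBLET-PRE cells and far under PANETH-PRE cells; the wide intervals belong to APC-KO replicate 1.

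GP cells made up a smaller share of the kept cells in both APC-KO libraries. They were 785 of 4814 cells (16.3%, exact 95% interval 15.3 to 17.4%) and 615 of 3821 (16.1%, 14.9 to 17.3%) in WT, and 7 of 356 (1.97%, 0.794 to 4.01%) and 455 of 6243 (7.29%, 6.66 to 7.96%) in APC-KO. The groups did not overlap. Means were 16.2% ± 0.149 and 4.63% ± 3.76 (SD, n = 2 libraries each), a difference of −11.6 percentage points with an exact two-sided permutation p of 0.33, the smallest possible here. In the better filled APC-KO replicate 2, PANETH-PRE cells were 9.64% of cells against 2.53 and 2.56% in WT, and SEC-PRO cells 13.8% against 11.3 and 10.1%. GOBLET-PRE cells were 17.3% there against 26.6 and 32.6%. APC-KO replicate 1 lay on the other side of WT for both, with 51.7% GOBLET-PRE and 1.40% SEC-PRO cells. A share is relative to the other kept cells. The part of the sort and of the limit on genes per cell in the difference was not tested. Intervals cover counting error only.

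**Figure D4:**
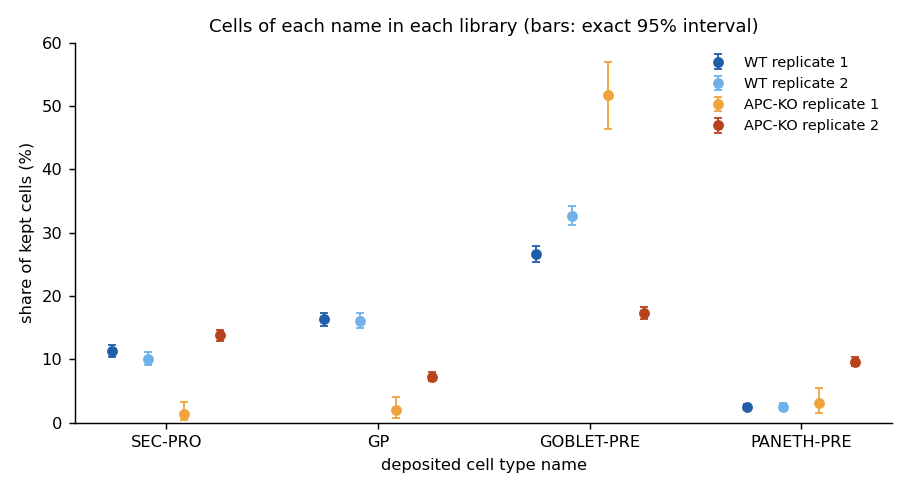
Share of kept cells (%) with the names SEC-PRO, GP, GOBLET-PRE and PANETH-PRE in each library, with exact 95% intervals. GP cells are 16.3 and 16.1% in WT, 1.97 and 7.29% in APC-KO, while PANETH-PRE cells are highest in APC-KO replicate 2 at 9.64%.

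Within GP cells, 11 of 18 Paneth genes tested and 4 of 17 secreted antimicrobial genes fell in APC-KO, 1 of each rose, and of the secretory transcription factors none passed the test. Library sums were compared with edgeR's quasi-likelihood test with Benjamini-Hochberg adjustment, and differences are log2 values of APC-KO minus WT. Of 9362 genes tested, 269 (2.87%) passed an adjusted p of 0.05, 167 (1.78%) higher and 102 (1.09%) lower in APC-KO. Values of the 2 genotypes did not overlap for 183 of the 269, and for 42.3% of all genes tested. The number called depended on single libraries. Leaving out WT replicate 1 gave 72 calls and leaving out WT replicate 2 gave 29. Dropping the 7 GP cells of APC-KO replicate 1 gave 612, and dropping APC-KO replicate 2 gave 46. DESeq2 called 2, Mptx1 and Gm14851, with 72 genes at an unadjusted p under 0.05, against 1152 with edgeR.

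Mptx1 had the deepest fall, at 142, 241, 0 and 1.78 CPM, a log2 difference of −6.63 (SE 0.43, edgeR adjusted p = 2.90e-49). Its APC-KO level rests on 3 UMIs, and the ratio of WT to APC-KO summed over libraries was 108 with a 95% counting interval of 36.8 to 523. Mptx1 passed in all 4 fits that left out 1 library and with DESeq2. Its level in GOBLET-PRE cells was 458, 447, 364 and 5.96 CPM, so the 2 APC-KO libraries differed there. Casc4 was 62.6, 61.9, 20.9 and 3.57 CPM, a log2 difference of −3.82 (SE 0.41, edgeR adjusted p = 4.43e-17), with 1 and 6 UMIs in the APC-KO libraries. It was 67.3, 65.7, 22.5 and 3.31 CPM in GOBLET-PRE cells, again far lower in APC-KO replicate 2. Without that library the edgeR adjusted p of Casc4 in GP cells was 0.784.

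Retnlb was 51.7, 24.8, 0 and 7.14 CPM in GP cells, from 205, 81, 0 and 12 UMIs, a log2 difference of −2.39 (SE 0.40, edgeR adjusted p = 4.45e-07). Both WT libraries lay above APC-KO replicate 2, while the 0 UMIs of APC-KO replicate 1 allow up to 62.6 CPM. Its edgeR adjusted p was 0.0569 when WT replicate 1 was left out and 0.681 when APC-KO replicate 2 was. The other markers did not pass with all 4 libraries. Rnase1 alone did so when APC-KO replicate 1 was left out, with a log2 difference of −0.58 (edgeR adjusted p = 0.0461). The log2 differences were −0.16 (SE 0.25, edgeR adjusted p = 0.91) for Ccl9, −0.22 (SE 0.24, edgeR adjusted p = 0.837) for Rnase1, −0.13 (SE 0.24, edgeR adjusted p = 0.925) for Creb3l1 and −0.00 (SE 0.23, edgeR adjusted p = 0.998) for Bhlha15.

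The secreted antimicrobial genes that fell were Retnlb, Ang4, Reg4 and Itln1, and Dmbt1 rose; DESeq2 called 0 of the 17 (4 at an unadjusted p under 0.05), and edgeR called 3 and 1 with WT replicate 1 and 2 left out in turn and 3 without APC-KO replicate 2. The Paneth list had the most genes called of the fixed lists. Of its 24 genes 18 passed the filter on low counts, which can admit a gene on its WT level alone, so the counts are a description. Of the 18, 17 were lower and 11 were called lower, with a median log2 difference of −1.36 against −0.02 over all genes. The summed list overlapped between genotypes in GP cells, at 8876, 11342, 8905 and 5751 CPM, and its abundant member Defa24 was highest in APC-KO replicate 1, at 4297, 4786, 6235 and 3309 CPM (log2 −0.00, SE 0.27, edgeR adjusted p = 0.998). Ang4, a bactericidal ribonuclease, was 215, 744, 20.9 and 115 CPM (log2 −2.08, SE 0.26, edgeR adjusted p = 8.78e-13). Lyz1 was 625, 876, 188 and 269 CPM (log2 −1.50, SE 0.26, edgeR adjusted p = 1.54e-06), and Itln1, a sugar-binding lectin, was 1567, 2088, 834 and 509 CPM (log2 −1.56, SE 0.27, edgeR adjusted p = 2.72e-06). Mptx2 was 27.8, 101, 0 and 14.3 CPM (log2 −2.07, SE 0.31, edgeR adjusted p = 1.23e-08). Ang4, Lyz1 and Itln1 were lower in both APC-KO libraries than in either WT library. In APC-KO replicate 1 the Ang4 and Lyz1 values rest on 1 and 9 UMIs, all from 3 of the 7 cells. Those 3 cells gave 37 Itln1 UMIs and the other 4 cells gave 3. Mptx2 lay under both WT libraries in APC-KO replicate 2, since 0 UMIs in the 7-cell library allow up to 62.6 CPM. Defa23, whose TCF motifs are printed above, gave 35, 20, 0 and 0 UMIs and was called (edgeR adjusted p = 0.00412). With 0 UMIs in both APC-KO libraries it passed the filter on its WT counts alone, so the call is a description. Against a floor of 3 counts over the APC-KO group it was at least 4.39-fold lower. Defa29 alone was called higher, at 10.8, 20.8, 0 and 77.3 CPM, the rise being in APC-KO replicate 2. The number of Paneth genes called was 8 and 4 with WT replicate 1 and 2 left out in turn, 15 with the 7-cell library left out, 5 with APC-KO replicate 2 left out and 1 with DESeq2. Without WT replicate 2 alone, Lyz1 (edgeR adjusted p = 0.162), Itln1 (edgeR adjusted p = 0.101) and Ang4 (edgeR adjusted p = 0.629) did not pass. The part of free RNA in this result was not tested, but its Paneth sum was lower too, at 16915 and 30008 CPM in APC-KO against 34453 and 57605 CPM in WT. PANETH-PRE cells of the 4 libraries held 137490, 119772, 106852 and 44109.9 CPM of the list. The Paneth genes called included the defensin genes Defa3, Defa17, Defa23, Defa26, Defa29, Defa30 and Defa36. Defa26 had 81 UMIs in WT and 0 in APC-KO GP cells, so it too passed the filter on its WT counts alone. Its log2 ratios of GP over PANETH-PRE cells were −4.98, −4.59, −5.26 and −0.80. PANETH-PRE cells of APC-KO replicate 2 thus held little Defa26 either, so its low level there was not particular to GP cells.

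Among the immediate early genes 8 fell. Of 19 tested 17 were lower, and those called were Fos, Junb, Atf3, Dusp1, Zfp36, Klf6, Nr4a1 and Btg2. Fos, a subunit of the AP-1 factor, was 1299, 1543, 479.6 and 759.6 CPM (log2 −1.05, SE 0.26, edgeR adjusted p = 0.00352). Atf3 was 505, 451, 41.7 and 258 CPM (log2 −1.03, SE 0.24, edgeR adjusted p = 0.00134), and APC-KO replicate 1 had 2 UMIs of it. With either WT library left out edgeR called 0 of the list (8 at an unadjusted p under 0.05 each time), with the 7-cell library left out 8, and DESeq2 with all libraries 0 (3 unadjusted). These genes respond to cell handling, whose part was not tested. Of 24 enteroendocrine genes 7 passed the filter on low counts, which can admit a gene on its WT level alone. Among these 7, 4 were called lower, namely Chga, Chgb, Pcsk1 and Ghrl, and this count is a description. DESeq2 called 0 (1 at an unadjusted p under 0.05), and edgeR called 0 without WT replicate 1 (3 unadjusted), 2 without WT replicate 2 and 0 without APC-KO replicate 2 (1 unadjusted). The enteroendocrine list summed to 213, 214, 20.9 and 99.3 CPM in GP cells and to 3391, 2191, 1584 and 2069 CPM in low-UMI barcodes. In GP cells 2, 4, 23 and 8 of its 24 genes were at 0 UMIs.

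Goblet genes and regulators mostly did not pass. Of 20 goblet genes tested, 2 were called, both lower: Clca1 (log2 −0.90, SE 0.26, edgeR adjusted p = 0.0199) and Ramp1 (log2 −0.78, SE 0.21, edgeR adjusted p = 0.0137). Muc2 was 4787, 3959, 3086 and 4369.6 CPM, a log2 difference of −0.21 (SE 0.27, edgeR adjusted p = 0.872). Spdef differed by −0.16 (SE 0.22, edgeR adjusted p = 0.887) and Atoh1 by −0.12 (SE 0.21, edgeR adjusted p = 0.921). Of the Wnt target genes edgeR called 0 of 7 tested (0 at an unadjusted p under 0.05, median −0.20), of the secretory transcription factors 0 of 23 (3 unadjusted), of the S phase genes 0 of 15 (2 unadjusted) and of the G2/M genes 0 of 10 (1 unadjusted). DESeq2 called 0 of each, with 0 unadjusted. Of 28 ER folding genes Sdf2l1 and Selenok fell and Sec61g rose. DESeq2 called 0 of them (2 unadjusted), as did edgeR without WT replicate 1 (3 unadjusted), without WT replicate 2 (1 unadjusted) or without APC-KO replicate 2 (11 unadjusted).

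Of the 5 largest rises, Nudcd3 and Rps29 were highest in APC-KO replicate 2 in GOBLET-PRE cells as well. Nudcd3, a dynein-linked chaperone, was 25.2, 17.5, 41.7 and 75.5 CPM (log2 1.86, SE 0.24, edgeR adjusted p = 6.06e-12). Atp5k, a subunit of ATP synthase, was 243, 138, 334 and 689 CPM (log2 1.68, SE 0.22, edgeR adjusted p = 4.45e-11). Rps29, a ribosomal protein, was 2819.9, 1757, 3169.8 and 9401 CPM (log2 1.52, SE 0.27, edgeR adjusted p = 4.02e-06). In GOBLET-PRE cells Nudcd3 was 25.8, 19.1, 26.4 and 67.8 CPM and Rps29 2167, 1478, 2857 and 7622 CPM, so APC-KO replicate 2 stood apart there too. Free RNA held 2155, 1675, 2114 and 6414 CPM of Rps29. Without APC-KO replicate 2 the log2 difference was 0.76 for Nudcd3 (edgeR adjusted p = 0.832), 0.61 for Atp5k (edgeR adjusted p = 0.784) and 0.27 for Rps29 (edgeR adjusted p = 0.798). Smim27, at 15.9, 10.1, 41.7 and 39.3 CPM (log2 1.66, SE 0.31, edgeR adjusted p = 1.29e-05), and the mucosal scavenger receptor Dmbt1, at 41.1, 27.6, 125 and 88.6 CPM (log2 1.47, SE 0.22, edgeR adjusted p = 8.15e-09), were the other 2 of the 5 largest rises.

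The genotype difference of GP cells was then compared with that of GOBLET-PRE cells of the same libraries by an interaction term with the library as a block. A negative value means that APC-KO lowered the gene more, or raised it less, in GP cells. Of 10227 genes, 28 (0.274%) passed, 26 (0.254%) with a negative and 2 (0.0196%) with a positive interaction. The 26 included 6 of the 19 secreted antimicrobial genes tested, Retnlb, Rnase1, Rnase4, Ang4, Reg4 and Itln1, of which DESeq2 called 2. Those 6 calls became 2 and 1 with WT replicate 1 and 2 left out in turn. Retnlb had an interaction of −2.86 (SE 0.43, edgeR adjusted p = 3.17e-08), and its GOBLET-PRE levels were 30.7, 20.2, 17.96 and 35.1 CPM. Its WT level in GP cells came from few cells. Thinned WT cells with a Retnlb UMI were 3.13 and 1.64% of GP against 3.88 and 2.42% of GOBLET-PRE cells. Itln1 had −1.96 (SE 0.29, edgeR adjusted p = 3.17e-08), with 1448, 1301, 1566 and 1663 CPM in GOBLET-PRE cells against 1567, 2088, 834 and 509 in GP cells. Lyz1 had −1.63 (SE 0.21, edgeR adjusted p = 1.53e-11) and Ang4 −1.32 (SE 0.22, edgeR adjusted p = 2.12e-06). Reg4, a secreted C-type lectin gene, had −1.85 (SE 0.20, edgeR adjusted p = 4.30e-16). Its levels were 191, 177, 146 and 57.7 CPM in GP and 97.4, 60.02, 58.4 and 97.4 CPM in GOBLET-PRE cells. Rnase1, which did not pass within GP cells, had −1.65 (SE 0.17, edgeR adjusted p = 3.09e-19), with 97.2, 97.3, 318 and 205 CPM in GOBLET-PRE cells.

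Of the Wnt target list 1 of 8 genes tested was called, Axin2. DESeq2 called 0 (1 unadjusted), and edgeR called 0 with WT replicate 1 (2 unadjusted) or WT replicate 2 (1 unadjusted) left out. Wnt3, a Wnt ligand made by Paneth cells, had an interaction of −2.16 (SE 0.51, edgeR adjusted p = 0.0113). It was 21.2, 28.8, 20.9 and 11.9 CPM in GP cells and 3.16, 3.01, 7.86 and 6.85 CPM in GOBLET-PRE cells. The WT excess of Wnt3 in GP cells was thus smaller in APC-KO replicate 2, while APC-KO replicate 1 rests on 1 UMI. Axin2 had −1.66 (SE 0.41, edgeR adjusted p = 0.0203), with 23.2, 18.1, 41.7 and 17.8 CPM in GP cells and 5.56, 4.01, 10.1 and 14.4 CPM in GOBLET-PRE cells, where both APC-KO values exceeded both WT values. Fam46c, a poly(A) polymerase that stabilises transcripts of secreted proteins, had −1.69 (SE 0.34, edgeR adjusted p = 4.53e-04). It was 38.6, 36.2, 20.9 and 31.5 CPM in GP cells and 9.02, 8.31, 25.3 and 23.4 CPM in GOBLET-PRE cells. Of the 22 Paneth genes tested 21 had a negative interaction and 9 were called, with a median of −1.23 against −0.02 over all genes. The summed list was 8477, 7679.5, 8548 and 16336 CPM in GOBLET-PRE cells against 8876, 11342, 8905 and 5751 CPM in GP cells, so it was higher in GP cells in both WT libraries and lower in them in APC-KO replicate 2. The number of calls moved with single libraries. It was 7 and 4 with WT replicate 1 and 2 left out in turn, and 97 and 113 with APC-KO replicate 1 and 2 left out. Of the 28, 0 passed in all 4 of these fits, 3 in 3 and 12 in 2. The Paneth genes called then numbered 1 (10 at an unadjusted p under 0.05) and 0 (7 unadjusted) with the WT libraries left out, and 11 without the 7-cell library. DESeq2 called 3, Itln1, Lyz1 and Rnase1, with 58 genes at an unadjusted p under 0.05 against 516 with edgeR. Without APC-KO replicate 2 the interaction of Reg4 was −0.31 (edgeR adjusted p = 0.859).

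**Figure D5:**
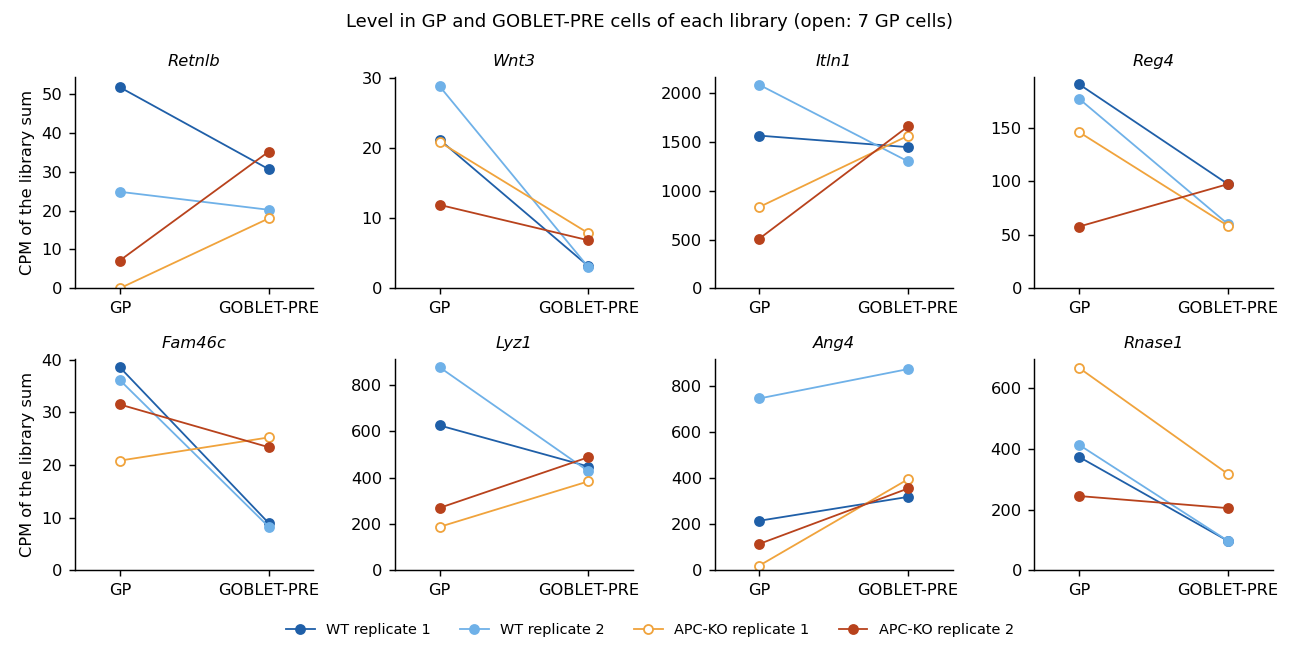
Level (CPM of the library sum) of 8 genes in GP and GOBLET-PRE cells, 1 line per library, with open symbols for APC-KO replicate 1 (7 GP cells). Itln1 and Lyz1 are higher in GP than in GOBLET-PRE cells in the WT libraries and lower in both APC-KO libraries, as is Retnlb in APC-KO replicate 2 (0 UMIs in APC-KO replicate 1). Rnase1 is higher in GP cells in every library, with log2 ratios of 1.93 and 2.08 in WT and 1.07 and 0.26 in APC-KO replicates 1 and 2. Wnt3 is higher in GP cells in WT and, by less, in APC-KO replicate 2, while its APC-KO replicate 1 value rests on 1 UMI.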

How the data were processed

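Raw UMI counts per gene and barcode were deposited by the authors, unfiltered, and come from Cell Ranger 3.0.2 with STAR and mm10, per the submitters' processing notes. The authors also deposited per-cell tables with counts of UMIs and genes, the percent of mitochondrial UMIs, and other values, namely library and cell type names. How cells were filtered and named is not given in the sources used here.

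UMIs of each name were summed per library and tested with edgeR 4.0.16 (TMM, filterByExpr, R 4.3.3); DESeq2 1.42.0 was an alternative. Type contrasts added 1 CPM. Cells were thinned to 2000 UMIs for shares, with Clopper-Pearson 95% intervals. Of 31053 gene IDs, 30934 (99.6%) matched GENCODE vM21; sequences come from RefSeq. Tested on simulated data, 173 of 197 genes changed by a log2 of 2 were recovered for GP cells among 9204 genes, and 150 of 200 for the interaction among 10100 genes.

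The members and lists were chosen with earlier results of these data known. Named genes were marker and list genes, the 5 largest differences each way past the threshold with at least 20 CPM and no overlap, and for type contrasts the 5 most extreme with at least 50 CPM. Model symbols were counted, not named, except Gm14851, named after its values were seen.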

Additional observations from a re-analysis of the deposited data

Results flagged for a closer look

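The genotype difference in GP cells differed from that in GOBLET-PRE cells for 28 genes, by the edgeR interaction test with the library as a block. Among those with at least 20 CPM and no overlap of the listed CPM between genotypes in GP cells, the log2 interaction was −2.86 for Retnlb, −2.16 for Wnt3, −1.96 for Itln1, −1.85 for Reg4 and −1.69 for Fam46c. In APC-KO replicate 2 the GP level was 7.14 CPM for Retnlb and 509 CPM for Itln1, and the GOBLET-PRE level 35.1 and 1663 CPM. Without thinning, a Retnlb UMI was found in 5.22 and 3.41% of WT GP cells and 6.79 and 4.25% of WT GOBLET-PRE cells. Without APC-KO replicate 2 the interaction of Reg4 was −0.31 (edgeR adjusted p = 0.859), so its value rests on that library. The values of Wnt3 and Fam46c in APC-KO replicate 1 rest on 1 UMI each in GP cells.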

How the results depend on the processing

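The 269 genes called in GP cells became 2 with DESeq2 (72 at an unadjusted p under 0.05) and ranged from 29 to 612 with 1 library left out, where the lone library of a genotype is assumed to vary like the others. The 28 interaction calls became 3 with DESeq2 and ranged from 4 to 113. With the replicate number as a block 76 genes were called in GP cells, 73 of them among the 269. Deviations of same-numbered libraries had a correlation of r = 0.0178 over 7391 genes. APC-KO replicate 1 held 7 GP cells, so this noisy value cannot show whether same-numbered libraries share a batch. Other size factors, no filter, deeper cells or subtraction of the low-UMI profile kept the counts within 1.5 times. The genotype difference in the share of GP cells was −16.2 points among goblet and Paneth lineage cells and −14.2 to −8.91 with 1 library left out. For cells with both lists the difference of −13.4 points became 9.06 above the 99th percentile of EC cells and 2.51 above the 95th percentile of EC, NON-EC and TUFT cells, both chosen after seeing the data. Leaving out 1 library gave −20.7 to −6.12 by the planned rule and −13.1 to 18.1 by the second. With 10 CPM added, genes higher and lower by 2-fold numbered 26 and 274 against SEC-PRO, 22 and 38 against GOBLET-PRE and 97 and 77 against PANETH-PRE cells. At a ratio of 4 they numbered 0 and 242, 5 and 15, and 81 and 53. Subtracting the low-UMI profile gave 268 genes higher than in GOBLET-PRE cells. With a single WT library the counts were 290 to 344 and 1008 to 1045, 420 to 515 and 228 to 234, 2071 to 2086 and 768 to 1052, and against all 3 names 16 to 19 higher and 4 lower, since only 1 library then had to pass. Low depth limits APC-KO replicate 1, where a gene at 0 UMIs in GP cells may reach 62.6 CPM. The cause of these changes was not tested.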
